A study of Ovis aries with 24 samples.

Results

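LDB1, its relative LDB2, the LMO genes LMO1, LMO2, LMO3 and LMO4 and the LIM-homeobox genes ISL1, LHX3 and LHX4 were described across all 4 groups of an RNA-seq study of sheep pituitary cells. These 9 genes were chosen by gene name, as members of one protein interaction network, out of 27054 counted features, of which 17060 carry a gene name. No threshold on a measured value was applied, but the choice was made with results of these libraries known, among them the lower LMO3 count after estradiol in sorted cells. Every contrast that uses a library treated with estradiol is therefore given as a description with no p-value. Calling such a contrast (adjusted p under 0.05) states only where its fit fell, and is no test of these genes. The vehicle libraries enter the E2 contrasts too. The p-values of the vehicle sort comparison are therefore not fully free of that choice for any member.

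The cells came from pituitaries of ovariectomized ewes of the Western white faced breed and were dispersed and grown on plastic. At 24 h they were infected with an adenovirus whose green fluorescent protein (GFP) gene is driven to be expressed in gonadotropes, the cells that secrete luteinizing and follicle-stimulating hormone, so all 4 groups carry the virus. After 3 more days the cultures received 6 h of ethanol (vehicle) or 10 nM estradiol (E2), and GFP-positive cells were collected by flow sorting. Sorted and unsorted cells, each with vehicle or with E2, make 4 groups of 6 libraries, numbered 1 to 6. The sources used here give neither the ages of the ewes nor the number of animals behind a library. The p-values then measure only the spread between these libraries, which may be partly technical.

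LIM domains are zinc-binding folds through which proteins bind each other. LDB1 forms dimers and binds the LIM domains of LIM-homeodomain transcription factors such as LHX3, and in this way joins distant enhancers to promoters. LMO proteins consist of little more than LIM domains and do not bind DNA themselves, so they can compete with LIM-homeodomain factors for LDB1 or link LDB1 to other DNA-binding proteins. LHX3 and LHX4 are needed to build the pituitary, and LHX3 also acts on promoters of pituitary hormone genes, the glycoprotein hormone alpha subunit gene CGA among them.

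Depth split the libraries evenly: the 12 of replicates 1 to 3 held 4.19 to 6.19 M counts and the 12 of replicates 4 to 6 held 19.2 to 37 M, with 3 shallow and 3 deep libraries in each group. No label says what else differs between these sets. Shallow and deep therefore name the sets, and not a cause of any difference between them. Of the gonadotrope markers, 5 of 5 tested were higher in sorted libraries with vehicle, and the summed level of 6 markers was 2468 to 5561 CPM (reads scaled to 1 M per library) in sorted and 286.7 to 1380 CPM in unsorted vehicle libraries. FOXL2 and NR0B1 were not analysed here. The sorted libraries also held reads of other hormone cell types. The summed lactotrope markers stood at 68380 to 176100 CPM in sorted and 40260 to 93390 CPM in unsorted vehicle libraries. Nearly all of that sum was the prolactin gene PRL, with a median of 121300 CPM beside 121700 CPM for the sum in sorted vehicle libraries. Sums of the somatotrope, corticotrope and thyrotrope markers had higher medians in sorted libraries too. These were 29200, 393 and 628.9 CPM in sorted and 15830, 197 and 308.9 CPM in unsorted vehicle libraries. The growth hormone gene GH, with a median of 28750 CPM in sorted vehicle libraries, made up most of the somatotrope sum. With vehicle, 4 of 4 lactotrope, 2 of 3 somatotrope, 2 of 4 corticotrope and 2 of 3 thyrotrope markers tested were called higher, and 0 lower. The part of these hormone cell types in the sort differences of the members was not tested. Summed fibroblast and pericyte markers were lower in sorted libraries, at 789.9 to 1789 against 4188 to 11420 CPM, with 6 of 9 tested lower and 1 higher. In bulk libraries like these, fewer cells of a type and less RNA per cell cannot be told apart, and sorting cannot be told apart from the handling that comes with it.

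With vehicle, 5 of the 8 tested members were higher in sorted than in unsorted libraries (LDB1, LMO2, LMO3, LHX3 and LHX4), 2 were lower (LMO1 and LMO4), and ISL1 did not pass (edgeR, adjusted p under 0.05). Of all 14468 genes tested, 24.4% were called higher and 25.8% lower. The median log2 fold change of the 8 members was 0.62, beside 0.02 over all genes. The E2 libraries gave 4 members higher (LDB1, LMO2, LHX3 and LHX4) and 2 lower (LMO1 and LMO4), beside 25.8% of all genes higher and 26% lower. They are other libraries than the vehicle ones. Same-numbered libraries correlated across groups, however, so the E2 sort comparison is not an independent repeat. LMO3 was the member called with vehicle but not with E2. The LMO genes were split by the sort in each treatment, with LMO2 on one side and LMO1 and LMO4 on the other.

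With E2 in sorted cells, LDB1 was higher and LMO3 lower past the same threshold, beside 1.11% of all 14334 genes higher and 0.258% lower. With the replicate number as a block, LDB1, LMO2 and LHX3 were called higher and LMO3, LMO4 and ISL1 lower, beside 7.03% and 6.2% of all genes. In unsorted cells LDB1 was called higher (0.212% of 15083 genes), and no member was called lower by edgeR (0.0331% of genes), with 0 lower at an unadjusted p under 0.05 and 0 by DESeq2. With the block, LDB1 was called higher and LMO3 and LHX3 lower, beside 2.86% and 2.37% of all genes. These counts come from contrasts that were known when the genes were chosen, and nothing is read from them.

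For the difference of the E2 effects, sorted minus unsorted, edgeR called 0 members (0.0264% of 15134 genes called higher and 0% lower). At an unadjusted p under 0.05 there were 1 higher and 2 lower. DESeq2 called LDB1 and left 3 members uncalled, and gave the rest of the 8 no adjusted p-value. With the block, LDB1 and LHX3 were called higher and LMO3 lower, beside 0.33% and 0.132% of all genes. In fits of the depth sets with the block, LDB1 and LHX3 were called in replicates 4 to 6, LMO3 was not (-1.13), and none of them was called in replicates 1 to 3 (LDB1 0.50, LMO3 -0.69, LHX3 0.64). The contrasts share libraries: the sorted vehicle libraries enter the vehicle sort comparison, the E2 comparison in sorted cells and the difference of E2 effects.

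**Figure D1:**
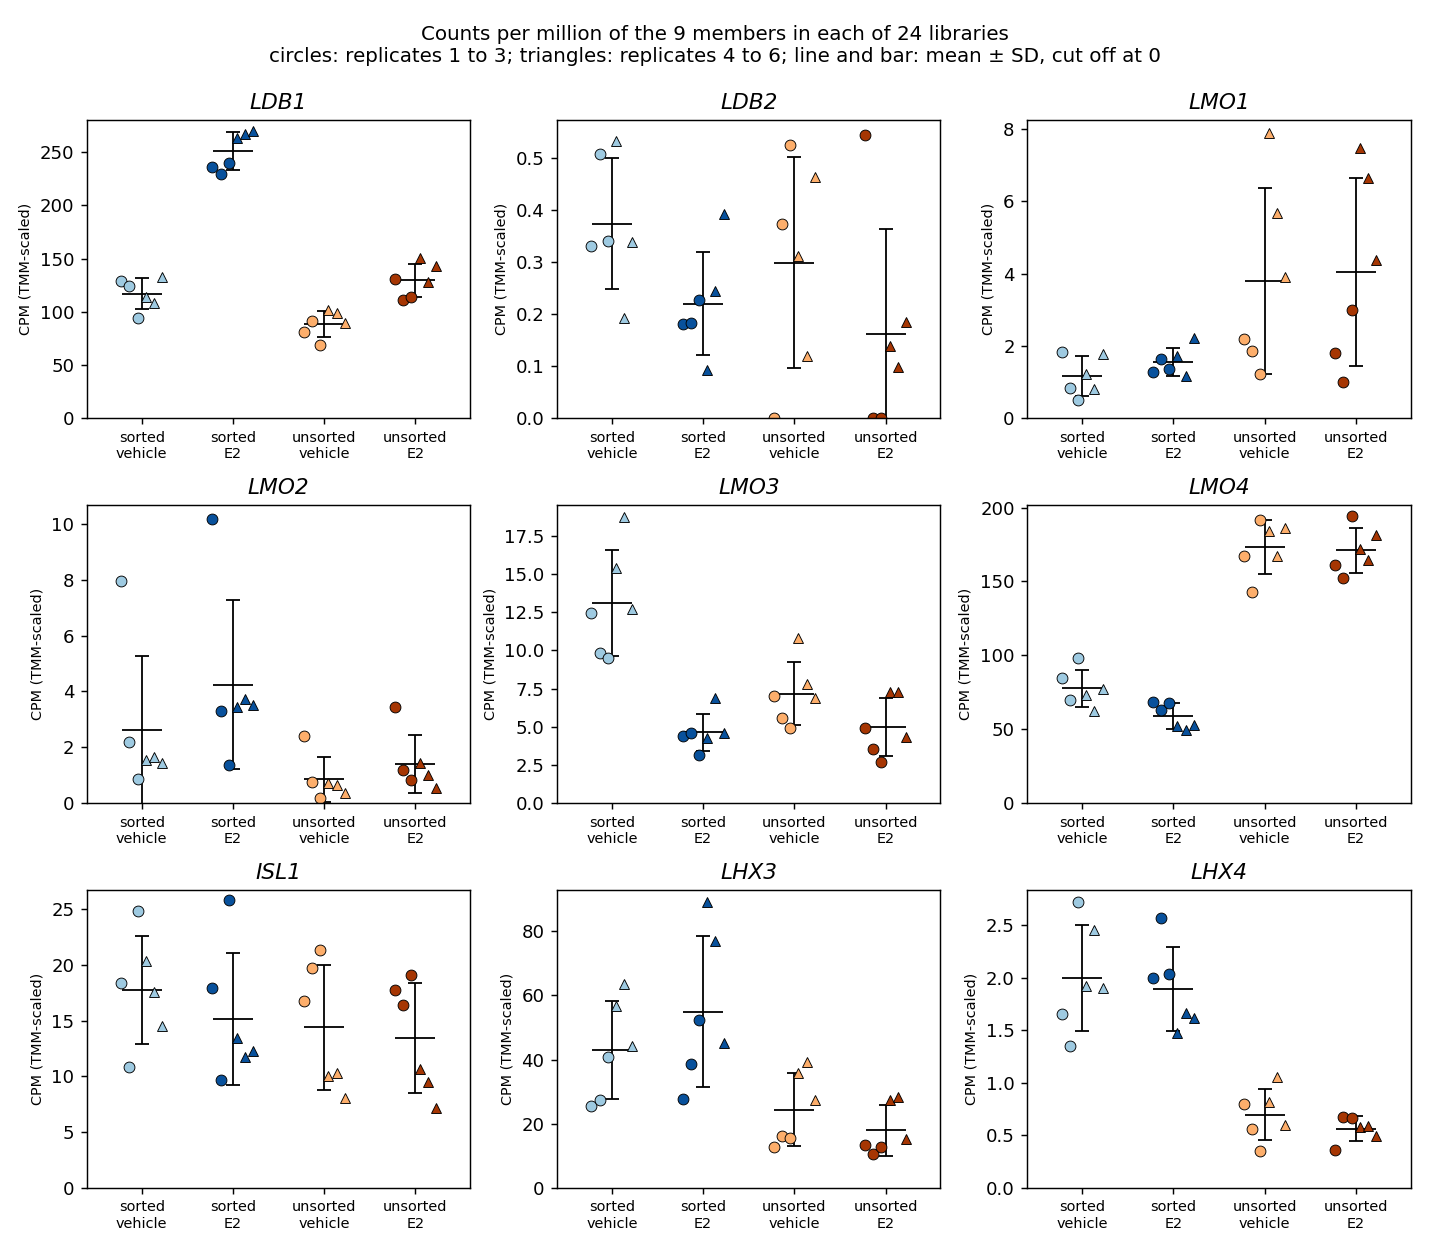
CPM of each of the 9 genes (y axis, from 0) in the 6 libraries of each group (x axis), with circles for replicates 1 to 3, triangles for replicates 4 to 6, and a line and bar for mean ± SD. LDB1 in sorted E2 libraries (229.9 to 270.1 CPM) and LMO4 in sorted libraries (49.5 to 98.2 CPM) stand clear of the other groups drawn beside them.

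LDB1 (ENSOARG00000017427), the shared cofactor, was higher with E2 in each preparation and higher in sorted cells with each treatment. It ranged from 94.6 to 132.5 CPM (median 119) in sorted vehicle and from 229.9 to 270.1 CPM (median 251.1) in sorted E2 libraries. It ranged from 68.95 to 101.2 CPM (median 90.56) in unsorted vehicle and from 110.9 to 150.2 CPM (median 129.3) in unsorted E2 libraries. Every sorted E2 library was above every other library, the next groups in order (unsorted E2 and sorted vehicle) overlapped, and sorted vehicle overlapped unsorted vehicle.

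E2 libraries held 2.19-fold more LDB1 reads than vehicle libraries in sorted cells, a log2 fold change of 1.13 ± 0.08 (SE), and the 6 same-numbered differences ran from 0.87 to 1.34. Replicates 1 to 3 gave 1.05 and replicates 4 to 6 gave 1.20. In unsorted cells the fold was 1.46, a log2 fold change of 0.55 ± 0.10, and the groups did not overlap either. The unsorted call was lost in 11 of the 12 fits that left out 1 library, all but the one without unsorted E2 replicate 2, with values of 0.49 to 0.60, and it was also lost without replicate 1 (0.52 ± 0.12). It was kept with the block, at 0.55 ± 0.05, with 0.56 and 0.55 in the shallow and the deep libraries.

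The E2 difference of LDB1 was larger in sorted than in unsorted libraries of the same number in 6 of 6 cases, by 0.58 ± 0.13 without and 0.59 ± 0.10 with the block. Apart from E2, LDB1 was higher in sorted libraries. With vehicle the sort difference was 0.42 ± 0.11 (adjusted p = 0.0046, edgeR), higher in 6 of 6 same-numbered libraries, at 0.53 in the shallow and 0.32 in the deep libraries. Among E2 libraries it was 1.00 ± 0.09, called, with no overlap between the groups. The authors' deposited table gave log2 fold changes of 1.14 for E2 in sorted and 0.54 in unsorted cells.

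LDB2 (ENSOARG00000010267), the second LDB cofactor gene, was close to absent. Its counts were 0 to 17 reads, and its median was 0.340 CPM in sorted vehicle, 0.205 in sorted E2, 0.343 in unsorted vehicle and 0.119 in unsorted E2 libraries. It was at 0 in unsorted vehicle replicate 1 and unsorted E2 replicates 2 and 3, where a count of 0 allows up to 0.599, 0.507 and 0.499 CPM. LDB2 failed the filter on low counts in every comparison. In fits with no filter its sort difference with vehicle was 0.30 ± 0.52 (adjusted p = 0.68, edgeR), and E2 against vehicle gave -0.64 ± 0.45 in sorted and -0.99 ± 0.64 in unsorted cells, neither called.

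**Figure D2:**
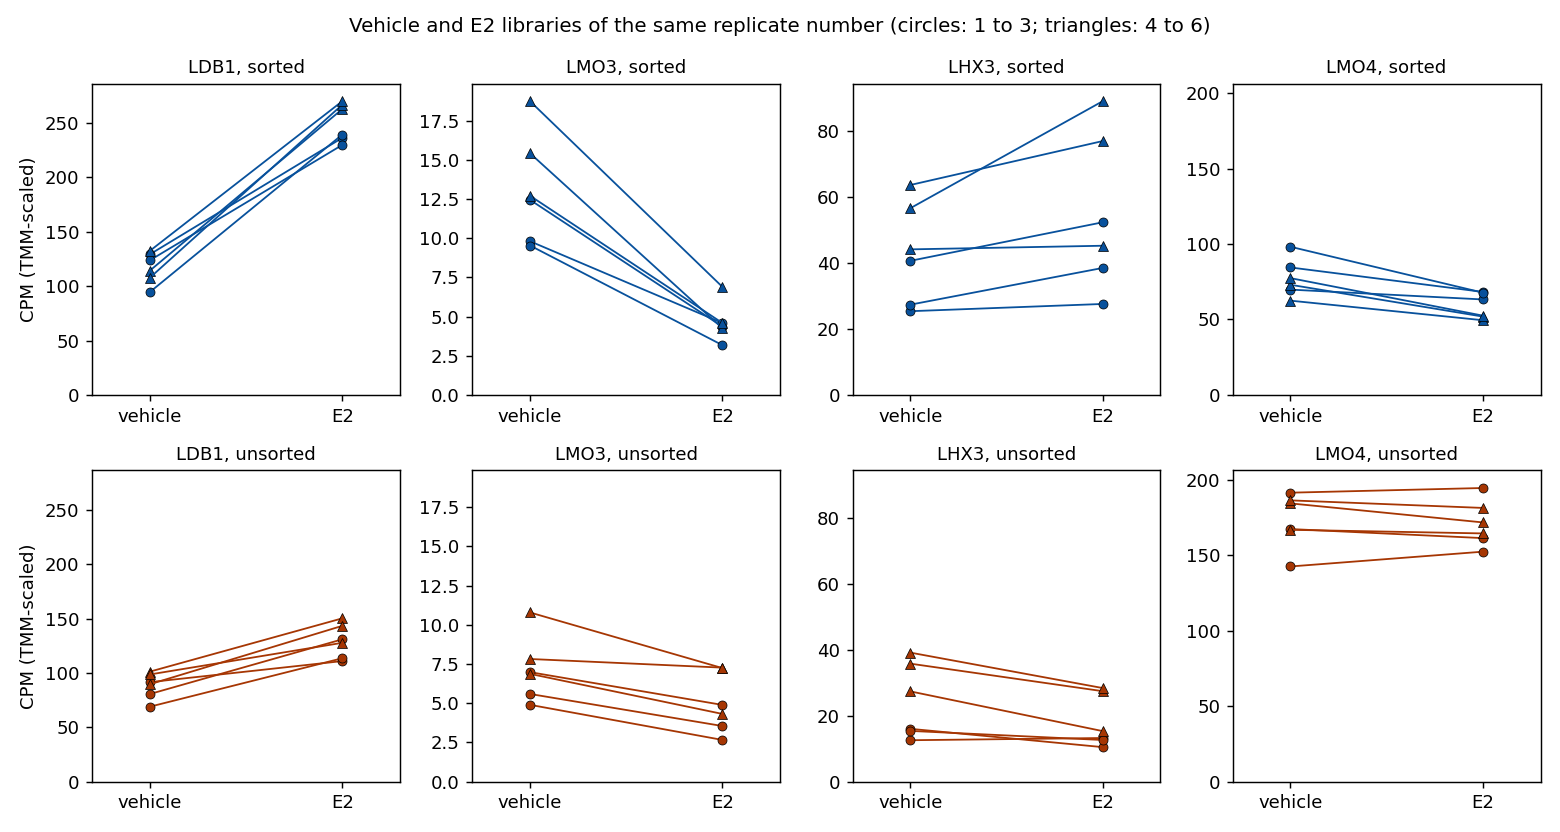
CPM (y axis, from 0, the same scale in both rows) of LDB1, LMO3, LHX3 and LMO4 in vehicle and E2 libraries joined by replicate number, sorted above and unsorted below. LDB1 lines go up and LMO3 lines go down in all 6 numbers of each preparation, while LHX3 lines go up in 6 of 6 sorted and down in 5 of 6 unsorted numbers.

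LMO3 (ENSOARG00000020573), an LMO gene best known from the nervous system, had its highest counts in sorted vehicle libraries. There it ranged from 9.53 to 18.7 CPM (median 12.6), against 3.17 to 6.89 CPM (median 4.47) in sorted E2 libraries. In unsorted libraries it ranged from 4.90 to 10.8 CPM (median 6.93) with vehicle and from 2.66 to 7.27 CPM (median 4.61) with E2. The sorted vehicle and sorted E2 ranges did not overlap, while sorted E2 and unsorted E2 covered nearly the same range.

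E2 against vehicle in sorted cells gave a log2 fold change of -1.46 ± 0.20 for LMO3, or 2.74-fold fewer reads, with same-numbered differences from -1.83 to -1.08. The shallow libraries gave -1.35 and the deep ones -1.55. In unsorted cells the value was -0.51 ± 0.25, not called, and with the block -0.49 ± 0.11, called, lower in 6 of 6 numbers. The E2 difference was more negative in the sorted library in 6 of 6 numbers, by -0.95 ± 0.33 without the block and -0.95 ± 0.19 with it, and passed the threshold only with the block.

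The sort comparison of LMO3 was called with vehicle and not with E2, and the difference between the treatments is the same quantity as the difference of E2 effects just given. With vehicle, LMO3 was higher in sorted libraries by 0.88 ± 0.21 (adjusted p = 0.0029, edgeR), in 6 of 6 numbers, with 0.87 and 0.91 in the shallow and the deep set. The same sorted vehicle libraries enter the E2 comparison known when the genes were chosen, which favours a positive sort difference. This p-value is therefore not free of that choice. Among E2 libraries the difference was -0.07 ± 0.26, with 3 numbers higher and 3 lower. The authors' deposited table gave -1.43 for E2 in sorted cells, and LDB1 and LMO3 were the only members with a false discovery rate under 0.05 in that table's sorted E2 comparison.

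LMO4 (ENSOARG00000014936), a broadly expressed LMO gene of epithelial tissues, was lower in sorted libraries. It ranged from 62.5 to 98.2 CPM (median 75.2) in sorted vehicle and from 142.6 to 191.5 CPM (median 175.9) in unsorted vehicle libraries. With E2 it ranged from 49.5 to 68.3 CPM (median 57.9) in sorted and from 152.4 to 194.6 CPM (median 168.2) in unsorted libraries. No sorted library reached the lowest unsorted library.

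The LMO4 sort difference was -1.14 ± 0.12 with vehicle (adjusted p = 2.9e-06, edgeR) and -1.50 ± 0.11 among E2 libraries, lower in 6 of 6 numbers in each. E2 against vehicle in sorted cells gave -0.37 ± 0.13, which was not called, and -0.38 ± 0.05 with the block, which was called, with every same-numbered difference between -0.56 and -0.14. In unsorted cells E2 and vehicle differed by -0.02 ± 0.09, with 4 numbers lower and 2 higher. Markers of several other cell types moved with the sort too, more of them in the direction of LMO4 than against it. With vehicle, 6 of 9 fibroblast and pericyte markers tested were lower and 1 higher. Of 8 endothelial markers 5 were lower and 0 higher by edgeR without the block. Of 5 markers of folliculostellate (supporting) and stem cells 3 were lower and 2 higher, and of 5 immune markers 2 were lower and 1 higher. The part of these cell types in the LMO4 difference was not tested.

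LMO1 (ENSOARG00000014993), the LMO gene first found at a chromosome translocation in T-cell leukaemia, was counted at low levels. It ranged from 0.510 to 1.83 CPM (median 1.04) in sorted vehicle, 1.17 to 2.23 CPM (median 1.51) in sorted E2, 1.23 to 7.88 CPM (median 3.05) in unsorted vehicle and 1.01 to 7.47 CPM (median 3.69) in unsorted E2 libraries. The unsorted groups fell apart by replicate set, with a median of 1.86 CPM in replicates 1 to 3 and 5.69 CPM in replicates 4 to 6 of unsorted vehicle.

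LMO1 was lower in sorted libraries by -1.72 ± 0.43 with vehicle (adjusted p = 0.0044, edgeR), in 6 of 6 numbers. The difference was -2.10 in the deep set and -0.74 in the shallow set, where it did not pass (adjusted p = 0.18, edgeR with the block). Among E2 libraries it was -1.36 ± 0.40, called, lower in 5 of 6 numbers. E2 against vehicle gave 0.45 ± 0.31 in sorted and 0.08 ± 0.46 in unsorted cells, neither of them called.

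LMO2 (ENSOARG00000018022), known as a bridge between LDB1 and the TAL1 and GATA factors of blood and endothelial cells, was also low. It ranged from 0.851 to 7.96 CPM (median 1.59) in sorted vehicle, 1.36 to 10.2 CPM (median 3.46) in sorted E2, 0.175 to 2.39 CPM (median 0.691) in unsorted vehicle and 0.525 to 3.44 CPM (median 1.10) in unsorted E2 libraries. The highest library in each group was replicate 1. In the other replicates LMO2 did not exceed 3.71 CPM. Its counts were 5 to 48 reads in sorted vehicle and 1 to 23 reads in unsorted vehicle libraries.

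LMO2 was higher in sorted libraries, by 1.76 ± 0.62 with vehicle (adjusted p = 0.028, edgeR) and by 1.73 ± 0.49 among E2 libraries, in 6 of 6 numbers each. Without sorted vehicle replicate 1 the vehicle value did not pass (1.05, adjusted p = 0.091), nor did it without unsorted vehicle replicate 3 (1.61, adjusted p = 0.053). Leaving out any library of replicates 4 to 6 put LMO2 under the filter on low counts, and leaving out replicate 1 from both groups gave 1.50 ± 0.37 (adjusted p = 0.0057). E2 against vehicle gave 0.78 ± 0.54 in sorted cells and 0.81 ± 0.55 in unsorted cells, and with the block 0.96 ± 0.16, called, and 0.75 ± 0.23, not called, higher in 6 of 6 numbers in each preparation. The sorted value without the block was 0.34 without sorted E2 replicate 1 and 1.48 without sorted vehicle replicate 1, and with the block it was 0.46, not called, in replicates 1 to 3 and 1.23, called, in replicates 4 to 6.

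Markers of endothelial and immune cells were followed in the same libraries as LMO2. Of 8 endothelial markers tested with vehicle, 5 were lower and 0 higher in sorted libraries by edgeR (0 higher at an unadjusted p under 0.05 and 0 by DESeq2). With the block, and among E2 libraries, 1 was called higher, TEK, at 0.62 ± 0.20 with vehicle. The summed level of the endothelial markers was 17.74 to 40.21 CPM in sorted and 31.88 to 68.24 CPM in unsorted vehicle libraries. Of 5 immune markers 2 were lower and 1, the T cell gene CD3E, was higher, with sums of 11.15 to 20.31 and 15.96 to 32.52 CPM. TAL1 and LYL1, the partners of LMO2 in blood cells, had at most 1 read in any sorted library. The part of these cell types in the LMO2 difference was not tested.

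LHX3 (ENSOARG00000004750), the pituitary LIM-homeodomain factor, varied more between replicate numbers than LDB1 or LMO4. It ranged from 25.4 to 63.7 CPM (median 42.4) in sorted vehicle and from 27.6 to 89.1 CPM (median 48.8) in sorted E2 libraries. In unsorted libraries it ranged from 12.6 to 39.2 CPM (median 21.7) with vehicle and from 10.5 to 28.4 CPM (median 14.3) with E2. Every pair of neighbouring groups in this order overlapped, and within each group the median of replicates 4 to 6 was above that of replicates 1 to 3, for example 56.6 against 27.4 CPM in sorted vehicle.

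LHX3 was higher in sorted libraries by 0.82 ± 0.29 with vehicle (adjusted p = 0.030, edgeR) and by 1.65 ± 0.31 among E2 libraries, in 6 of 6 numbers each. The vehicle call did not hold in 6 of the 12 fits that left out 1 library (adjusted p at most 0.073), when that library was replicate 4 or 5 of sorted vehicle or replicate 1, 2, 3 or 6 of unsorted vehicle. It also did not hold with no filter on low counts (adjusted p = 0.054). With the block it was 0.87 ± 0.11 (adjusted p = 3.6e-05), at 1.07 in the shallow and 0.71 in the deep set.

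The E2 values of LHX3 had opposite signs in the preparations. In sorted cells E2 against vehicle gave 0.39 ± 0.29, and 0.36 ± 0.08 with the block, with all 6 same-numbered differences above 0. In unsorted cells it gave -0.45 ± 0.31, and -0.49 ± 0.08 with the block, with 5 of 6 numbers lower. Each value was called with the block and not without it. The sorted value was 0.36, called, in replicates 1 to 3 and 0.35, not called, in replicates 4 to 6. The unsorted value was -0.28, not called, in replicates 1 to 3 and -0.54, called, in replicates 4 to 6. The sorted minus unsorted difference of the E2 values was 0.83 ± 0.45, and 0.81 ± 0.15 with the block. It was above 0 in 6 of 6 numbers and was called with the block only.

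LHX4 (ENSOARG00000018191), the close relative of LHX3, was low but separated by the sort. It ranged from 1.35 to 2.72 CPM (median 1.91) in sorted vehicle, 1.48 to 2.57 CPM (median 1.83) in sorted E2, 0.35 to 1.05 CPM (median 0.699) in unsorted vehicle and 0.363 to 0.676 CPM (median 0.588) in unsorted E2 libraries. Sorted and unsorted libraries did not overlap with either treatment, while vehicle and E2 libraries of one preparation did. Its counts were 2 to 51 reads.

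The sort difference of LHX4 was 1.47 ± 0.28 with vehicle (adjusted p = 6.2e-04, edgeR) and 1.75 ± 0.25 among E2 libraries. It was under the filter on low counts when sorted vehicle replicate 4, 5 or 6 was left out, and among E2 libraries when any library of replicates 4 to 6 was. E2 against vehicle gave -0.09 ± 0.23 in sorted and -0.38 ± 0.29 in unsorted cells, neither called with or without the block.

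ISL1 (ENSOARG00000008350), a LIM-homeodomain factor of the early pituitary and of gonadotropes and thyrotropes, did not pass in either sort comparison. It ranged from 10.8 to 24.8 CPM (median 18.0) in sorted vehicle, 9.72 to 25.8 CPM (median 12.9) in sorted E2, 8.10 to 21.4 CPM (median 13.6) in unsorted vehicle and 7.16 to 19.1 CPM (median 13.5) in unsorted E2 libraries. All 4 groups overlapped.

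The sort difference of ISL1 was 0.34 ± 0.27 with vehicle (adjusted p = 0.31, edgeR) and 0.22 ± 0.29 among E2 libraries. It was not alike in the depth sets, at -0.13 in replicates 1 to 3 (adjusted p = 0.59, edgeR with the block) and 0.90 in replicates 4 to 6 (adjusted p = 8.3e-05, edgeR with the block) with vehicle, a gap between the sets that was itself not tested. Unsorted vehicle libraries had a median of 19.8 CPM in replicates 1 to 3 and 10.1 CPM in replicates 4 to 6, while sorted vehicle libraries had 18.4 and 17.6 CPM. E2 against vehicle in sorted cells gave -0.21 ± 0.25, and -0.28 ± 0.09 with the block, which was called, with 0.00 in the shallow and -0.45 in the deep set. In unsorted cells it gave -0.10 ± 0.31.

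**Figure D3:**
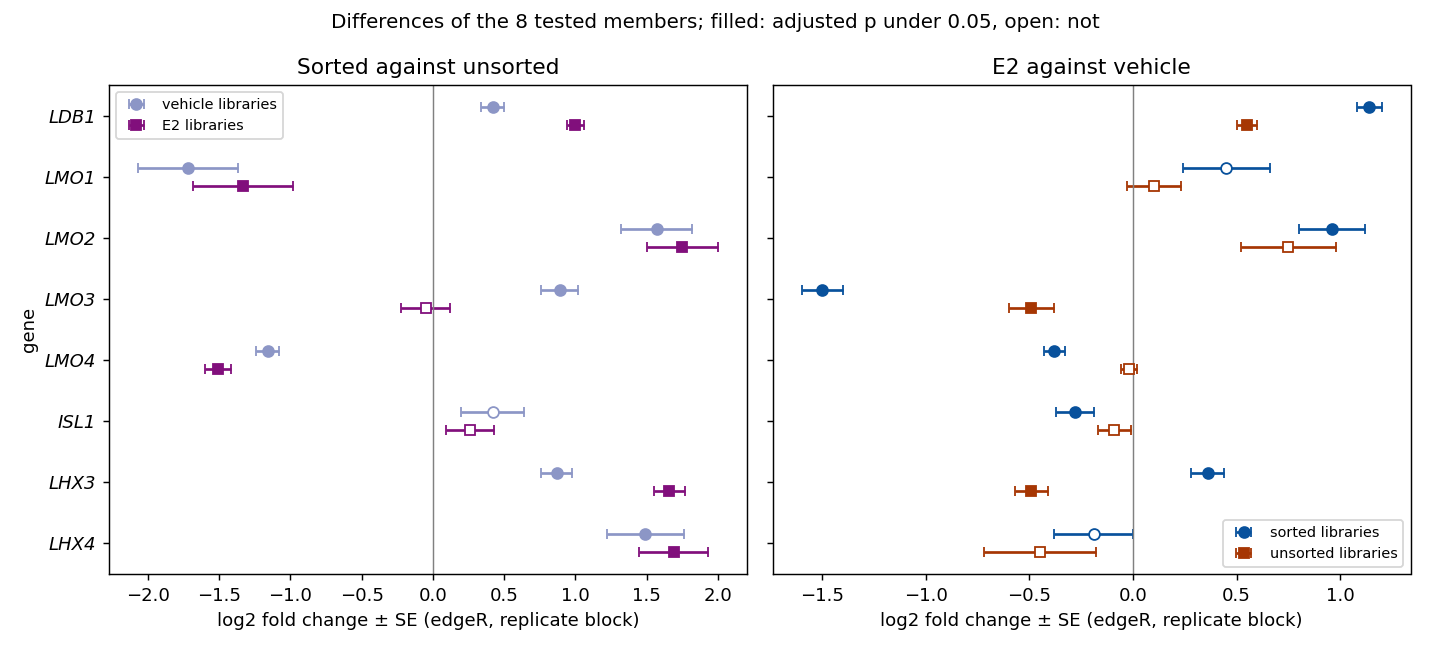
Log2 fold change ± SE of the 8 tested genes (x axis) from edgeR fits with the replicate block, sorted against unsorted on the left and E2 against vehicle on the right, with filled symbols where the adjusted p was under 0.05. LDB1 lies to the right of 0 in all 4 contrasts, LMO3 moves from 0.89 with vehicle to -0.05 with E2 on the left, and LHX3 lies on opposite sides of 0 on the right.

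Since LMO and LIM-homeodomain proteins bind the same site on LDB1, the balance of their reads was followed within each library, where no scaling enters. CPM are not divided by transcript length, so the size of such a ratio has no meaning of its own, and only its change between groups is read. LDB1 reads per read of the 7 LMO and LIM-homeobox genes had a median of 0.755 (0.534 to 1.01) in sorted vehicle and 1.78 (1.56 to 2.21) in sorted E2 libraries. In unsorted libraries the median was 0.395 (0.294 to 0.489) with vehicle and 0.621 (0.486 to 0.671) with E2. The log2 ratio was higher with E2 in 6 of 6 numbers, by 1.26 ± 0.25 (SD, n = 6) in sorted and 0.62 ± 0.20 in unsorted libraries.

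LMO reads per LIM-homeodomain read had a median of 1.57 (0.999 to 2.35) in sorted vehicle, 0.988 (0.589 to 1.77) in sorted E2, 4.82 (3.58 to 5.94) in unsorted vehicle and 5.6 (4.66 to 8.29) in unsorted E2 libraries. The sorted library was lower in 6 of 6 numbers, by -1.61 ± 0.37 on the log2 scale with vehicle and -2.53 ± 0.58 with E2. E2 libraries were lower by -0.64 ± 0.21 in sorted cells (6 of 6 numbers), while unsorted cells gave 0.28 ± 0.26 (5 of 6 higher). LMO4 was the most counted LMO gene in every library, and LHX3 outnumbered ISL1 in all but the unsorted libraries of replicates 1 to 3. The sort differences rested on LMO4 and LHX3. Without them the sort difference was 0.14 ± 0.90 with vehicle (3 higher and 3 lower) and -0.26 ± 0.91 with E2 (2 higher and 4 lower). The E2 difference without them was -0.48 ± 0.22 in sorted libraries, still lower in 6 of 6 numbers, and -0.08 ± 0.24 in unsorted libraries (2 higher and 4 lower).

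**Figure D4:**
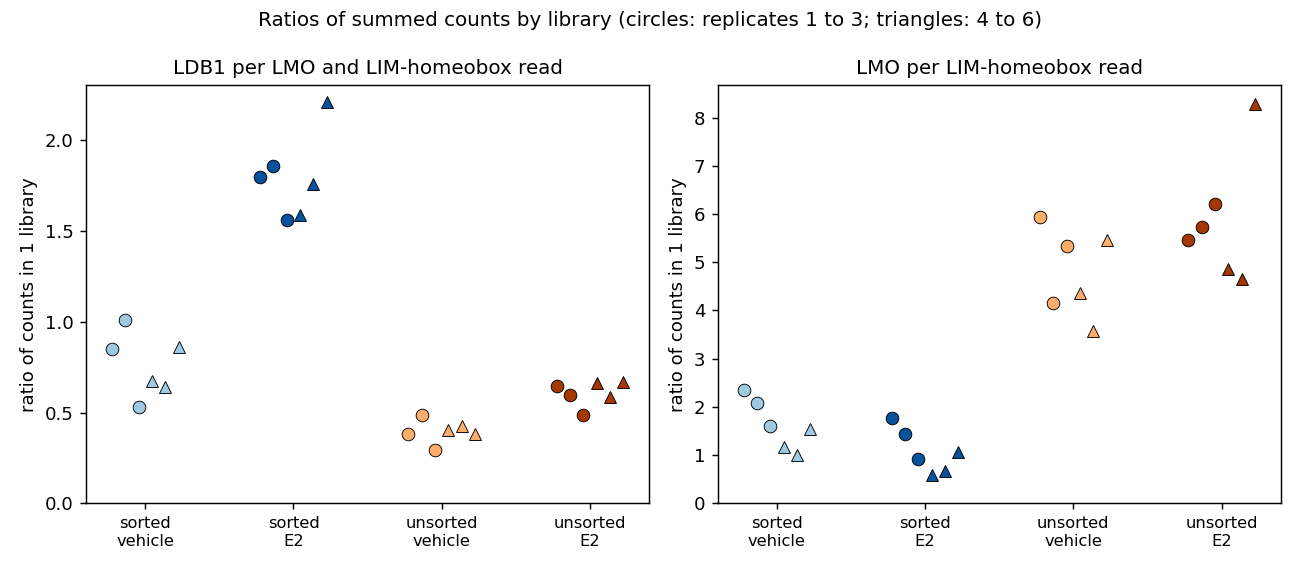
Ratio of summed counts within each library (y axis, from 0) by group (x axis), LDB1 over the LMO and LIM-homeobox genes on the left and LMO over LIM-homeobox genes on the right, with circles for replicates 1 to 3 and triangles for replicates 4 to 6. Sorted E2 libraries (1.56 to 2.21) stand above all others on the left, and unsorted libraries (3.58 to 8.29) above all sorted libraries on the right.

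Ratios of single members were followed in the same way. The log2 ratio of LMO3 to LHX3 reads was alike in sorted and unsorted vehicle libraries, with a mean same-numbered difference of 0.00 ± 0.35 (3 higher and 3 lower). With E2 it was lower in sorted cells by -1.82 ± 0.37 (6 of 6), against -0.15 ± 0.39 in unsorted cells (4 lower and 2 higher). The LHX3 to ISL1 ratio was higher with E2 in 6 of 6 sorted numbers (0.58 ± 0.42) and lower in 6 of 6 unsorted numbers (-0.32 ± 0.23).

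Other proteins of LDB1 complexes were taken from a list of 17 genes, of which 13 have a named feature and 9 were tested. With vehicle, 1 of the 9 was higher in sorted libraries and 3 were lower, beside 24.4% and 25.8% of all genes. The median was -0.28, beside 0.02 over all genes. With the block 3 were higher and 5 lower, where 9198 of all 14468 genes were called. Without the block the higher gene was RLIM, a ubiquitin ligase that targets LDB1, at 0.38 ± 0.15 (adjusted p = 0.047, edgeR). That call did not hold (adjusted p at most 0.10) when replicate 1, 2 or 3 of sorted vehicle or replicate 4, 5 or 6 of unsorted vehicle was left out. The lower genes were RUNX1, a factor of blood cells and other tissues, at -2.31 ± 0.18, and the E-protein genes TCF12 at -1.19 ± 0.11 and TCF4 at -0.86 ± 0.10. Among E2 libraries 2 were higher and 4 lower, beside 25.8% and 26% of all genes. RUNX1 at -2.33, TCF12 at -1.24 and TCF4 at -0.98 were again among the lower.

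With E2 in sorted cells, CBFA2T3, a corepressor found with LDB1 in blood cell complexes, was the 1 partner called higher of 9, and 0 were lower by edgeR without the block (0 lower at an unadjusted p under 0.05 and 0 by DESeq2). With the block 1 was higher and 2 were lower, SSBP2 and TCF12, each at -0.21 ± 0.06. Of all genes, 7.03% were called higher and 6.2% lower with the block, and 1.11% and 0.258% without it. CBFA2T3 ranged from 1.19 to 3.47 CPM (median 2.69) in sorted vehicle and from 5.26 to 14.9 CPM (median 10.9) in sorted E2 libraries, a log2 fold change of 1.99 ± 0.31. In unsorted cells it ranged from 0.875 to 2.56 CPM with vehicle and from 0.507 to 3.30 CPM with E2, and its value was 0.51 ± 0.37. The difference of these E2 effects was called for 0 of 9 partners without the block (1 higher at an unadjusted p under 0.05). DESeq2 called 0 and left 8 uncalled. With the block this difference was 1.44 ± 0.31 for CBFA2T3, called, beside 0.33% of all genes higher, and above 0 in 6 of 6 numbers. CBFA2T3 counts were as low as 7 reads in sorted vehicle and 3 reads in unsorted E2 libraries. The SSBP genes, whose products bind LDB1 and protect it from breakdown, were not called with E2 in sorted cells without the block, SSBP4 at 0.01 ± 0.23 and SSBP2 at -0.19 ± 0.15. In unsorted cells 0 of 9 partners were called by edgeR (0 at an unadjusted p under 0.05 and 0 by DESeq2).

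Of 9 other LIM-homeodomain genes, ISL2 alone passed the filter in the sort comparisons. It was lower in sorted libraries, at -0.99 ± 0.24 with vehicle (adjusted p = 0.0037, edgeR), from a median of 5.39 CPM in unsorted to 2.39 CPM in sorted libraries, which is the direction opposite to that of LHX3 and LHX4. LHX5, LHX9 and LMX1B had at most 3 reads in any library.

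LIM-domain genes of the cytoplasm and cytoskeleton, whose proteins do not work through LDB1, were mostly lower in sorted libraries. Of 33 tested with vehicle, 24 were lower and 1 higher (median -1.28), and among E2 libraries 24 and 2 (median -1.18). Of all genes, 25.8% were called lower and 24.4% higher with vehicle, and 26% and 25.8% with E2. MICAL1, which encodes an enzyme that oxidizes actin, was at -2.15 ± 0.14 and the adhesion plaque gene LPP at -1.99 ± 0.13. LMO4 and LMO1 thus shared the direction of these genes and LDB1, LMO2, LHX3 and LHX4 did not. With E2, edgeR called 0 of 33 in sorted cells (6 at an unadjusted p under 0.05: 4 higher and 2 lower; DESeq2 1 lower) and 0 of 33 in unsorted cells (0 and 0). With the block 5 were called higher and 5 lower in sorted cells, beside 7.03% and 6.2% of all genes. In unsorted cells 1 was called higher with the block and 0 lower, beside 2.86% and 2.37% of all genes.

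Genes that LIM-homeodomain factors act on or work beside in the pituitary were mostly higher in sorted libraries, 11 of 12 tested with vehicle (median 1.60). Of all genes tested, 24.4% were called higher. CGA, FSHB, LHB, GNRHR and NR5A1 are in this list and among the gonadotrope markers, and gonadotropes were sorted for. The count thus repeats part of that marker result. CGA stood at 2.74 ± 0.28 and HESX1, a homeobox gene of the early pituitary, at 0.70 ± 0.24, while PITX1 did not pass (-0.32 ± 0.22). With E2 in sorted cells 1 of 12 was called higher (GNRHR, the receptor for gonadotropin-releasing hormone, 1.98 ± 0.38) and 1 lower (POU1F1, a factor of lactotropes, somatotropes and thyrotropes, -0.75 ± 0.10). With the block the counts were 1 and 5, beside 7.03% and 6.2% of all genes, and without it the shares of all genes were 1.11% and 0.258%.

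The genes whose pattern was most like that of a member were found over the 24 libraries by the Pearson r of log2 CPM after removal of each replicate number's mean. These r describe libraries that share groups, depth and a common scale. For LDB1 they were DGKZ (r = 0.975), DOK4 (0.973) and KANSL3 (0.969). For LMO3 they were RGS2 (0.920), TRHR (0.919) and ASB4 (0.906). For LMO4 they were STARD13 (0.989), PEA15 (0.989) and CDYL2 (0.987), for LHX3 PLEKHA6 (0.977), HR (0.975) and PFKFB4 (0.970), and for LHX4 MTSS1 (0.962), DLL1 (0.960) and CACNG7 (0.957). For the low-count genes they were FZD7 (0.944), ZNF593 (0.927) and RBM4 (0.915) for LMO1, and PLEKHA5 (0.967), SYNRG (0.963) and ELAVL3 (0.962) for LMO2. For ISL1 they were CDH3 (0.904), HACD4 (0.877) and ST3GAL6 (0.873).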

How the data were processed

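The authors deposited whole-number read counts per gene for 24 libraries in 3 tables with Ensembl sheep identifiers, counted with featureCounts 1.5.1 per the submitters' processing notes. For the aligner, the genome build and the strand setting nothing is given in the sources used here, and reads of antisense partners cannot be told apart. No coordinates or sequences are printed. The 12 vehicle libraries stand in 2 tables each, and 0 values differed. The authors' deposited comparison tables hold log2 fold changes beside a log2 mean CPM, p-values and false discovery rates, per the file headers. The deposited sort table also holds a signed fold score, which was not used. The deposited sort table is coded unsorted over sorted, and its signs were turned here.

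Counts were fitted here with edgeR 4.0.16 in R 4.3.3 (TMM, filterByExpr on the groups compared, robust glmQLFit, 2-sided quasi-likelihood F-test), with Benjamini-Hochberg adjustment over all genes tested and a threshold of 0.05. The SE is the log2 fold change over the square root of F. CPM use TMM-scaled library sizes, and log2 CPM a prior count of 2. Limits for a count of 0 are 3 reads and cover counting error only. Values for replicates 1 to 3 (shallow) and 4 to 6 (deep) come from fits of those libraries with the replicate block. The fits were tested on simulated data. DESeq2 1.42.0, other size factors, no filter, a depth term, the replicate block and left-out libraries were alternatives.

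No label says what a shared replicate number means. Centred by group, same-numbered libraries correlated at r = 0.291 to 0.859 (36 pairs), other numbers of the same depth set at -0.0425 to 0.512, and 24 of 24 libraries correlated best with their own number, so the numbers were taken to pair the libraries and blocked values are given where they change a call.

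The members and gene lists were chosen with earlier results of these data known. All 9 members are named, with the 3 genes most like each tested member and a selection from up to 4 called genes of each list by smallest p. Some listed genes are not reported here. PITX1, HESX1, SSBP2, SSBP4, TCF12, TEK, CD3E, TAL1, LYL1, LHX5, LHX9, LMX1B, PRL and GH were named after their values were seen.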

Additional observations from a re-analysis of the deposited data

Results flagged for a closer look

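LMO2 was highest in replicate 1 in each of the 4 groups, far from the other 5 libraries. It stood at 7.96 CPM in sorted vehicle (next 2.2), 10.2 CPM in sorted E2 (next 3.71), 2.39 CPM in unsorted vehicle (next 0.746) and 3.44 CPM in unsorted E2 (next 1.42). The 4 libraries share a replicate number, and what else they share is not given in the sources used here. LDB2 stood at 0.544 CPM in unsorted E2 replicate 1, a value that rests on 3 reads, with the next library at 0.185 CPM. Among independent groups of normally distributed values about 1 in 20 holds such a library by chance. Of the 36 groups looked at 5 did, but 4 of these are LMO2 in replicate 1 and are not independent, so the counts cannot be compared.

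With the replicate block, the E2 effect in sorted minus that in unsorted cells was past the threshold for LDB1 (0.59 on the log2 scale), LMO3 (-0.95) and LHX3 (0.81). The genes were chosen with E2 results known, so these values are a description. LDB1 was higher with E2 in each preparation, LMO3 lower in each, and LHX3 had opposite signs.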

How the results depend on the processing

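The 8 tested members were recomputed in 909 alternative fits of a single member, of which 860 kept direction and call, or an uncalled value's side of the threshold, 26 gained a call, 23 lost one and 0 reversed a called value. The paired fit with the replicate block called 6 members for E2 in sorted cells (2 without it), 3 in unsorted cells (1 without it) and 3 for the difference of E2 effects (0 without it), and changed no call in the 2 sort comparisons. With the block, replicates 1 to 3 gave 4 and replicates 4 to 6 gave 5 members for E2 in sorted cells, replicates 1 to 3 gave 1 and replicates 4 to 6 gave 2 in unsorted cells, and for the difference they gave 0 and 2. DESeq2 and a depth term gave 1 each for the difference. A block within each preparation, chosen after seeing the data, gave 4, adding LMO4. For E2 in unsorted cells no filter gave 0, and leaving out replicate 1 in all groups, also chosen after seeing the data, gave 0. Leaving out 1 library gave 4 to 7 members for the sort with vehicle (4 without sorted vehicle replicate 4 or 5, where LMO2 and LHX4 fell under the filter and LHX3 lost its call), 5 to 6 for the sort with E2, 2 for E2 in sorted cells, 0 to 1 in unsorted cells and 0 for the difference. Without LMO4 and LHX3, the log2 LMO to LIM-homeodomain ratio gave 0.14 ± 0.90 (SD) for the sort with vehicle, -0.08 ± 0.24 for E2 in unsorted cells and -0.26 ± 0.91 for the sort with E2, values within 1 SD of 0, and -0.48 ± 0.22 for E2 in sorted cells. Counts of 0 to 51 reads limit what can be seen for LDB2 and LHX4, as do counts of 1 to 80 reads for LMO2.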
